A study of Homo sapiens with 2 samples.

Results

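The genes described here mark the identity and differentiation of the colon epithelium. They are the homeobox factors CDX1 and CDX2, the nuclear receptor HNF4A, the structural and adhesion genes VIL1, KRT20 and CDH17, the adhesion molecules CEACAM5, CEACAM6 and CEACAM7, and the lectin LGALS4. The members were all probe sets annotated to 1 of these 10 genes alone, and none was chosen by its measured value. That gave 17 probe sets for 9 genes, of 41091 probe sets for 19775 genes named in the same way. No probe set in the annotation used here is paired with HNF4A, so HNF4A was not analysed here.

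Total RNA of HCT116 cells, a human colorectal cancer line, was hybridised with biotin label to 2 arrays. The first sample is labelled HCT116-CPEB4, cells over-expressing CPEB4 from a lentivirus. Its comparison, HCT116-GFP, is labelled wild type. The sources used here do not say whether those cells also carried a vector, which promoter drives CPEB4 or how many clones were taken. Both lines were grown in the same medium with serum. With 1 array for each line there was no replicate, no test and no p-value, and this small number of arrays is what limits precision. CPEB4 itself, which encodes an RNA-binding protein of the cytoplasmic polyadenylation machinery, read lower on the array labelled HCT116-CPEB4 at all 4 of its probe sets, with log2 differences between −1.52 and −0.08. The array is therefore called the CPEB4-labelled array, and each direction rests on the label. The ACTB control signal had a 3′ to 5′ ratio of 10.3 on the CPEB4-labelled array and 8.23 on the HCT116-GFP array. For GAPDH it was 1.04 and 0.989 in the same order, and the part of RNA quality in the differences below was not tested.

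In the intestine, CDX1 and CDX2 bind DNA through a homeodomain and maintain the intestinal programme, together with HNF4A, which controls genes of absorptive cells. Their targets include structural proteins of mature cells, such as villin and keratin 20, and the intestinal cadherin CDH17. CEACAM proteins are immunoglobulin-like cell surface molecules, and CEACAM5 is the carcinoembryonic antigen measured in blood to follow colorectal cancer. HCT116 is known as a poorly differentiated line.

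Most probe sets of these genes read dim on at least 1 array. Values are linear intensities, and the dim threshold was 60.8 units, the 50th percentile of all values of both arrays. Of the 17 probe sets, 3 reached it on both arrays, 5 on 1 array and 9 on neither. The 3 were single probe sets of KRT20, CDX2 and CEACAM5. The genes CDH17, CEACAM6 and LGALS4 had no probe set at the threshold on either array. The share on both arrays was 17.6% of the member probe sets, against 52.2% of all named probe sets and 13.6% of 88 probe sets for markers of other cell types.

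**Figure D1:**
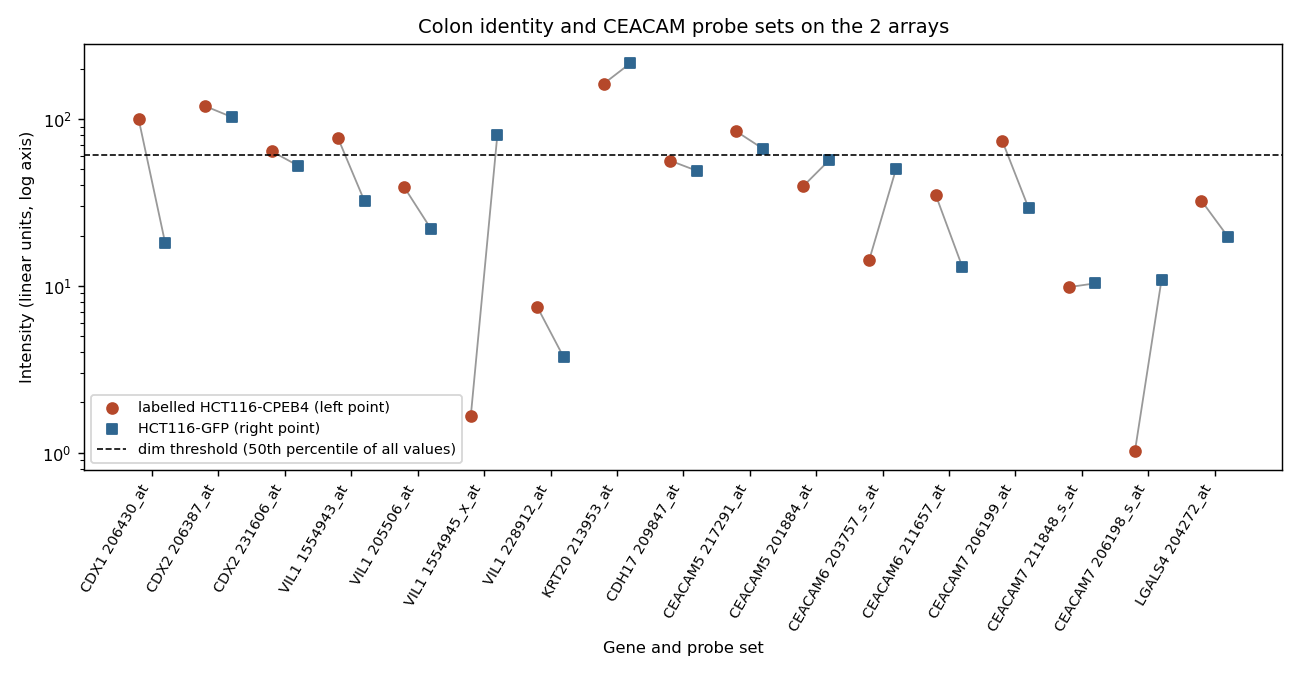
Intensity of each of the 17 probe sets on a log axis, with the CPEB4-labelled array as the left point, the HCT116-GFP array as the right point and the dim threshold of 60.8 as a dashed line. KRT20, 1 probe set of CDX2 and 1 of CEACAM5 lie above the line on both arrays, and the lines joining the points slope both ways.

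General epithelial markers read above the threshold on both arrays. The adhesion molecule EPCAM read 20717 on the CPEB4-labelled array and 20994 on the HCT116-GFP array. The simple epithelial keratin KRT18 read 28606 and 27353 in the same order. Intensities of different probe sets depend on the probes, so these values are not ranked against those of the members. Readings reached the threshold on both arrays for KRT20, CDX2 and CEACAM5, and not for the other 6 genes measured. For CDX2 and for CEACAM5 this held at 1 of 2 probe sets. Some markers of other cell types reached it too, among them COL1A1 at 1292 on the CPEB4-labelled array and 949 on the HCT116-GFP array. Reaching the threshold therefore does not by itself bear out the colon label of the list. In bulk RNA, fewer cells that express a gene and less RNA in each cell cannot be told apart.

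CDX1, which is expressed along the crypt of the normal intestine, has 1 probe set (206430_at). It read 99.5 on the CPEB4-labelled array and 18.0 on the HCT116-GFP array. The log2 difference was 2.47, but the HCT116-GFP value lay under the threshold, so the size of the difference is not well determined. With 32 units added to each value it was 1.40. As deposited, it lay outside the range from −2.16 to 2.22 that held the central 95% of all named probe sets with a geometric mean intensity between 32 and 64. Because the gene has a single probe set here, no second probe set bears on it.

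CDX2, the master regulator of intestinal fate, was read by a pair of probe sets that gave nearly the same difference. The first (206387_at) read 120 on the CPEB4-labelled array and 103 on the HCT116-GFP array, a log2 difference of 0.22. The second (231606_at) read 64.2 and 52.5 in the same order, the latter under the threshold, a log2 difference of 0.29. The 2 differences were 0.07 apart, the narrowest gap among the member genes with several probe sets. Both differences lay well inside the spread of probe sets of like intensity, which for the first ran from −1.34 to 1.30.

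CDX4, the third caudal homeobox gene, read 18.6 on the CPEB4-labelled array and 9.11 on the HCT116-GFP array, under the threshold on both. The HNF4A paralog HNF4G, which shares binding sites with HNF4A in enterocytes, went the other way. It read 97.6 on the CPEB4-labelled array and 207 on the HCT116-GFP array, a log2 difference of −1.09. Its second probe set differed by −0.98 at values under the threshold, 1.98 and 3.91. With 32 units added to each value, HNF4G was not lower by 2-fold.

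Among structural genes, KRT20 was read by 1 probe set (213953_at), at 163 on the CPEB4-labelled array and 216 on the HCT116-GFP array. KRT20 encodes an intermediate filament protein of mature surface cells. The log2 difference was −0.41, or 1.33-fold lower. All named probe sets with a geometric mean from 128 to 256 had a central 95% range from −0.90 to 0.94, and KRT20 lay inside it. Of the 3 probe sets at or above the threshold on both arrays, it was the 1 with a lower value on the CPEB4-labelled array.

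The promoters of CDX2 and KRT20 are shown because these genes had readings above the threshold on both arrays and because KRT20 is a known CDX1 target. Each line gives the 150 bases before the gene's start from RefSeq on build GRCh38.p14, on the minus strand, at chr13:27969316-27969465 and chr17:40885243-40885392. Capitals mark the core letters TTTAT and TTTAC of the CDX binding site, searched on both strands.
CDX2: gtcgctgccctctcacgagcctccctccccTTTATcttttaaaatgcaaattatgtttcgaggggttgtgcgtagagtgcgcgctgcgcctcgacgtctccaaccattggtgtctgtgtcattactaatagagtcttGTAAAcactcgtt
KRT20: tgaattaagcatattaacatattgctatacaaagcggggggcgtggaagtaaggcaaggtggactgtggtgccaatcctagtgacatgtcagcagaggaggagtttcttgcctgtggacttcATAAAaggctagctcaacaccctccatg
The CDX2 window held both cores, starting at −120 and −13 from the gene's start. The KRT20 window held 1 match, at −28, where a TATA box usually lies, and its letters overlap those of a TATA box. At least 1 of the 2 cores was found in 30.5% of 35116 promoter windows of this length, so these matches describe letters and not sites. Among the other members with a promoter in the table, TTTAT was found at −67 in CEACAM5 and at −138 in CEACAM6. Neither core was in the windows of LGALS4, CEACAM7 or HNF4A. CDX1, VIL1 and CDH17 have no entry in the promoter table.

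VIL1, which encodes the actin-bundling protein villin of the brush border, had 4 probe sets that did not give 1 direction. The first (1554943_at) read 77.0 on the CPEB4-labelled array and 32.2 on the HCT116-GFP array, a log2 difference of 1.26. The second (205506_at) read 38.9 and 22.0 in the same order, a log2 difference of 0.82. The third (228912_at) read 7.48 and 3.72, a log2 difference of 1.01. These 3 were higher on the CPEB4-labelled array, each with at least 1 value under the threshold. The fourth (1554945_x_at) read 1.66 on the CPEB4-labelled array and 80.7 on the HCT116-GFP array, a log2 difference of −5.60. With 32 units added to each value it was −1.74. As deposited, it lay outside the central 95% of its intensity range, −3.66 to 3.63. Over the 4 probe sets the mean was −0.63 and the differences spanned 6.86 log2 units, so the direction of VIL1 is not settled.

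CDH17, the liver-intestine cadherin, read 56.4 on the CPEB4-labelled array and 49.0 on the HCT116-GFP array at its single probe set (209847_at). The log2 difference was 0.20. Both values lay just under the threshold. LGALS4, which encodes galectin-4, a lectin of apical membrane traffic in enterocytes, read 32.4 on the CPEB4-labelled array and 19.7 on the HCT116-GFP array (204272_at). The log2 difference was 0.72. Probe sets with a geometric mean from 16 to 32 had a central 95% range from −3.20 to 3.10, so a difference of this size is common at this intensity.

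The 3 CEACAM genes of the list lie next to each other on chromosome 19 in the order CEACAM7, CEACAM5, CEACAM6, between CEACAM4 and CEACAM3. Their proteins are anchored to the membrane by a lipid. Their promoters are shown because the genes are close paralogs and their transcripts can share probe sequence. Each line gives the 150 bases before the gene's start from RefSeq on build GRCh38.p14. They lie at chr19:41708476-41708625 (plus strand) for CEACAM5, chr19:41755380-41755529 (plus strand) for CEACAM6 and chr19:41688271-41688420 (minus strand) for CEACAM7. Capitals mark CACGTG alone, the E-box that USF factors are known to bind in the CEACAM5 promoter.
CEACAM5: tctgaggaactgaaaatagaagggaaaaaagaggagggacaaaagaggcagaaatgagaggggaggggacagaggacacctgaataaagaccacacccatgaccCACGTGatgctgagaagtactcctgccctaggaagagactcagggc
CEACAM6: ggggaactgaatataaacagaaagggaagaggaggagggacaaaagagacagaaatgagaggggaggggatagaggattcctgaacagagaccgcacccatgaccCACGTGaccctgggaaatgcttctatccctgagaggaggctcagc
CEACAM7: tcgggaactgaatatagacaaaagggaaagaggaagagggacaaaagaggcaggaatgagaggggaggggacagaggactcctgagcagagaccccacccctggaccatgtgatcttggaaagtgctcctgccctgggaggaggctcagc
In global alignments the windows were 78.1% identical for CEACAM5 and CEACAM6, 80.5% for CEACAM5 and CEACAM7 and 84.2% for CEACAM6 and CEACAM7. By the same alignment, KRT20 and CDX2 were 48.9% identical. CACGTG was found at −46 in CEACAM5 and at −45 in CEACAM6, and these letters are not in the CEACAM7 window. They occurred in 4.57% of all promoter windows of this length.

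CEACAM5 was read by a pair of probe sets with opposite signs. The first (217291_at) read 84.3 on the CPEB4-labelled array and 66.3 on the HCT116-GFP array, a log2 difference of 0.35. The second (201884_at) read 39.4 and 56.9 in the same order, a log2 difference of −0.53, under the threshold on both arrays. Their mean was −0.09.

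CEACAM6, a paralog of CEACAM5 on epithelial cells and granulocytes, also had opposite signs, at values under the threshold throughout. The first probe set (203757_s_at) read 14.4 on the CPEB4-labelled array and 49.9 on the HCT116-GFP array, a log2 difference of −1.80. The second (211657_at) read 35.1 and 13.0 in the same order, a log2 difference of 1.43. The 2 readings differed by 3.23 log2 units, so no direction can be given for CEACAM6.

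CEACAM7, a marker of mature surface cells of the colon, had 3 probe sets. The first (206199_at) read 74.3 on the CPEB4-labelled array and 29.1 on the HCT116-GFP array, a log2 difference of 1.35. The second (211848_s_at) read 9.82 and 10.4, a log2 difference of −0.08. The third (206198_s_at) read 1.03 and 10.9, a log2 difference of −3.41. Only the first reached the threshold, on the CPEB4-labelled array, and the 3 differences spanned 4.76 log2 units.

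**Figure D2:**
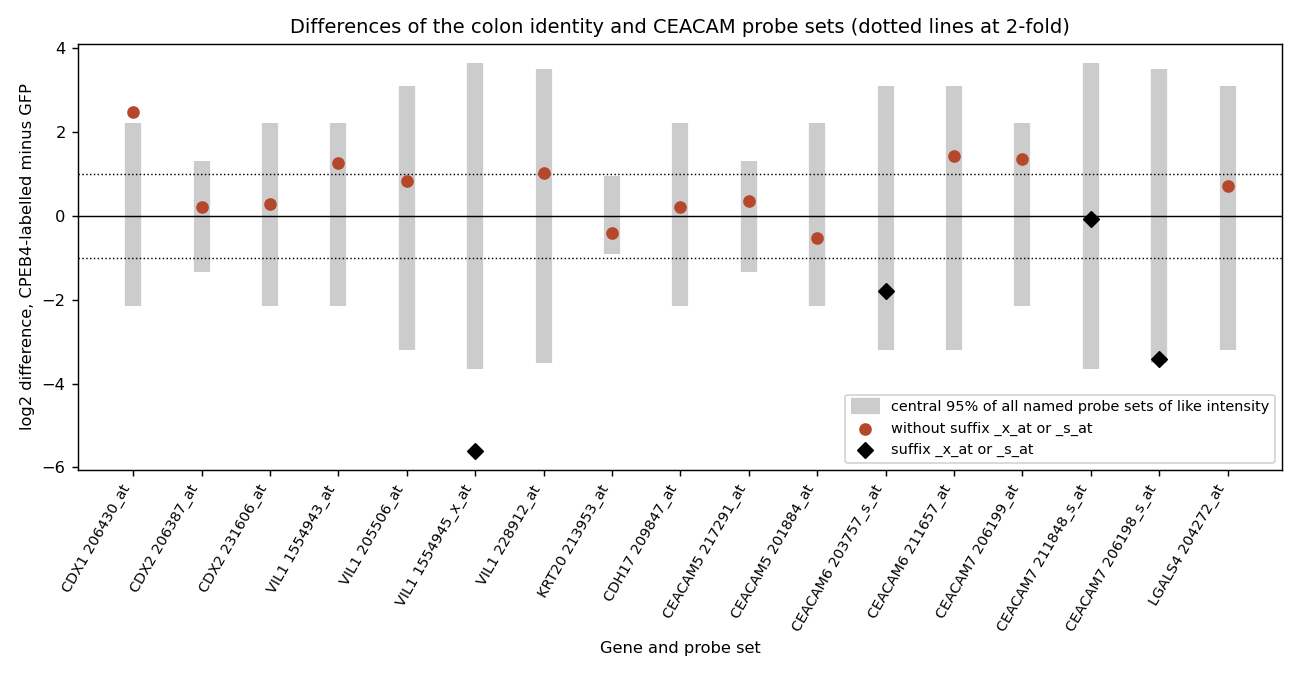
The log2 difference of each of the 17 probe sets, CPEB4-labelled minus HCT116-GFP, with grey bars for the central 95% of all named probe sets in the same intensity bin and dotted lines at 2-fold. CDX1 at 2.47 and 1 VIL1 probe set at −5.60 lie outside their bars, and diamonds mark probe sets whose suffix denotes possible cross-hybridisation.

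Differences were counted from 2-fold upwards, by size and with no test. Without any filter, 5 of the 17 probe sets were higher by 2-fold or more on the CPEB4-labelled array and 3 were lower, against 11.2% higher and 11.8% lower among all named probe sets. The higher ones were those of CDX1, CEACAM6 (211657_at), CEACAM7 (206199_at) and 2 of VIL1. The lower ones were the remaining probe sets of VIL1 (1554945_x_at), CEACAM6 (203757_s_at) and CEACAM7 (206198_s_at) named above. Of the 17, 11 lay above 0 and 6 below.

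After the dim filter, which kept a probe set if the higher of its 2 values reached the threshold, 8 probe sets of 6 genes remained. Of these, 3 were higher by 2-fold or more and 1 was lower, against 4.60% higher and 4.48% lower among the 25010 named probe sets that passed. All 4, that is CDX1, 1 probe set of CEACAM7 and 2 of VIL1, reached the threshold on 1 array alone. Among all named probe sets that passed through 1 array, 26.9% were higher by 2-fold or more and 27.5% lower, so such calls were common for that kind of reading. None of the 3 probe sets at or above the threshold on both arrays differed by 2-fold, against 1.52% of all such probe sets in either direction. The median log2 difference was 0.32 over the 8 and 0.00 over all named probe sets that passed. Of the 8, 4 passed through the CPEB4-labelled array alone and 1 through the HCT116-GFP array alone, so the signs of these were fixed by the filter. The median was 0.22 over the 3 on both arrays, which is the value of 1 CDX2 probe set. Over all 17 without a filter it was 0.29, with most values dim. No shift of the list is read from these medians.

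Differences of 2-fold depended on intensity across the whole array. The members' geometric mean lay under 64 for 14 of the 17 probe sets. In that range, 29.8% to 59.5% of all named probe sets differed by 2-fold or more in either direction, depending on the intensity bin. Between 64 and 128, where CDX2 and CEACAM5 had a probe set each, it was 10.2%, and between 128 and 256, where KRT20 lay, it was 3.62%. Above these intensities no member was found. The differences of 2 member probe sets, those of CDX1 and VIL1 (1554945_x_at), lay outside the central 95% of their bin.

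**Figure D3:**
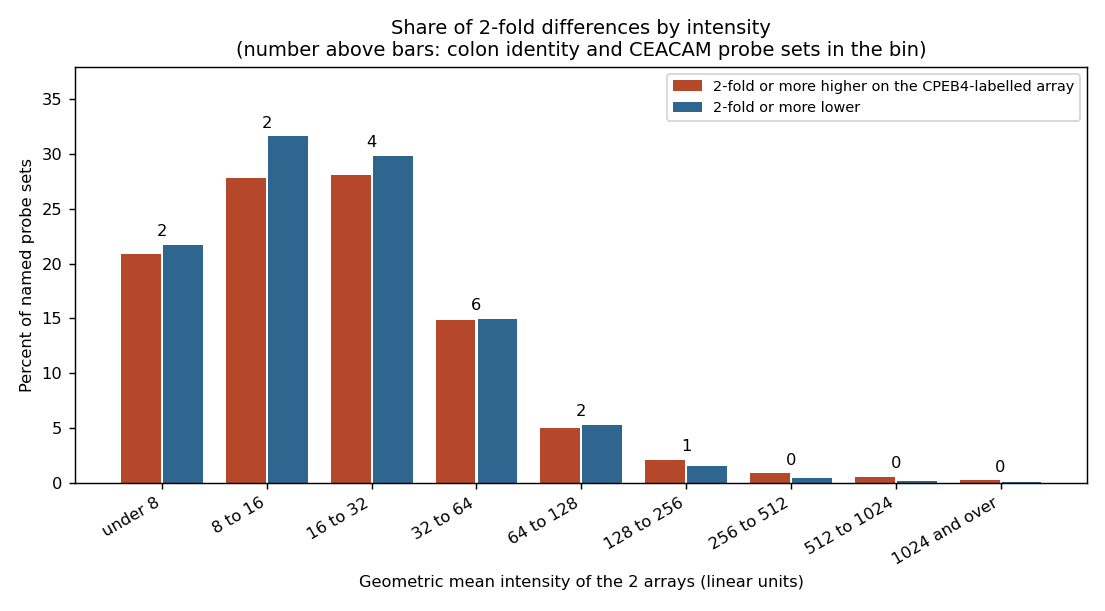
Percent of all named probe sets that differed by 2-fold or more, by bins of geometric mean intensity, with bars for higher on the CPEB4-labelled array left of bars for lower. The number above each pair is the count of colon identity and CEACAM probe sets in that bin, and 14 of the 17 lie in the 4 bins under 64.

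Probe sets of the same gene often disagreed, on the whole array as among the members. Of the 5 member genes with several probe sets, 4 held differences of both signs, and CDX2 was the exception. Among all 3288 genes with several probe sets whose brightest had a geometric mean under 128, 62.1% held both signs, with a median span of 1.81 log2 units. Over all 10523 genes with several probe sets, dim ones included, the share was 62.5% and the span 0.98. Among 6520 genes with several probe sets past the dim filter, the share was 54.5% and the span 0.47. Disagreement in sign was thus less frequent and smaller there, but still common. The suffix of a probe set divided the members by sign, over few probe sets and mostly dim values. An _s_at suffix marks probes shared by several transcripts, and _x_at marks probes that may bind other sequences. All 4 members with such a suffix lay below 0, 3 of them by 2-fold or more. Of the 13 without it, 11 lay above 0, and the 2 below were those of KRT20 and CEACAM5 (201884_at). Across all named probe sets no such division was seen, since 50.2% of those with a suffix and 49.6% of those without lay above 0. Higher by 2-fold or more were 0 of the 4 members with a suffix and 5 of the 13 without, against 9.08% and 12.4% of all named probe sets. Lower by 2-fold or more were 3 and 0 members, against 9.64% and 13.0%. Those shares cover all intensities, and the suffix group over all named probe sets also holds _a_at, which no member carries. The 3 lower members had geometric means of 11.6, 26.8 and 3.35. In their intensity bins 31.6%, 29.9% and 21.7% of all named probe sets were lower by 2-fold or more, so such calls were common there.

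Of the other CEACAM genes, CEACAM1 and CEACAM3 had probe sets of both signs too. CEACAM1, an adhesion molecule with inhibitory signalling motifs, read 91.0 on the CPEB4-labelled array and 118 on the HCT116-GFP array, a log2 difference of −0.38. Its 5 probe sets ran from −2.04 to 1.01. CEACAM3, a phagocytic receptor of granulocytes, ran from −1.65 to 1.42 over 3 probe sets. CEACAM8, another granulocyte gene, read 3.37 on the CPEB4-labelled array and 16.2 on the HCT116-GFP array.

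Further genes, in lists that overlap in 3 genes, were read at their brightest probe set past the dim filter. The lists hold genes of the intestinal programme, general epithelial markers, other CEACAM genes and other galectins. Their pooled counts therefore do not describe the intestinal programme alone. Of 151 genes in 8 lists, 136 had a probe set and 74 passed. Among these, 3 were higher by 2-fold or more and 4 were lower, against 3.55% higher and 3.85% lower of all 13704 genes that passed. The lower ones were HNF4G, described above, and 3 genes whose CPEB4-labelled value lay under the threshold. These were the brush border motor MYO1A, at 3.46 on the CPEB4-labelled array and 73.1 on the HCT116-GFP array, the glucose transporter SLC5A1, at 17.1 and 74.8, and the transcription factor CREB3L3, at 23.6 and 67.1. The endoderm factor FOXA2 was higher, at 74.3 and 17.4. With both values at or above the threshold, the mucin MUC4 read 379 on the CPEB4-labelled array and 180 on the HCT116-GFP array. The 3 probe sets of MUC4 that passed the dim filter ran from 0.34 to 1.08. LGALS3BP, a secreted glycoprotein that binds galectins and is known to be induced by interferon, read 3496 on the CPEB4-labelled array and 1703 on the HCT116-GFP array.

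Of 32 products of mature absorptive cells with a probe set, 25 did not pass the filter, against 3 of the 9 members. Of all 19775 genes, 6071 did not pass, so the members' share was near that of the whole array. Among them, 1 of the 7 that passed was lower by 2-fold or more, with a median log2 difference of −0.24. Carbonic anhydrase CA2 differed by −0.24 and the peptidase DPP4 by 0.15. Among 25 secretory lineage genes, 6 passed, with a median of 0.12, and REG4 differed by −0.62. Intestinal transcription factors passed in 17 of 21 cases and had a median of −0.02, with KLF4 at −0.29 and SPDEF at 0.62. However, the 3 probe sets of SPDEF that passed the dim filter ran from −0.73 to 0.62. Brush border and junction genes passed in 21 of 23 cases with a median of 0.05, and the junction protein CGN differed by 0.61. The microvillar linker EZR read 23225 on the CPEB4-labelled array and 22492 on the HCT116-GFP array, and the bundling protein PLS1 read 3587 and 4622.

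**Figure D4:**
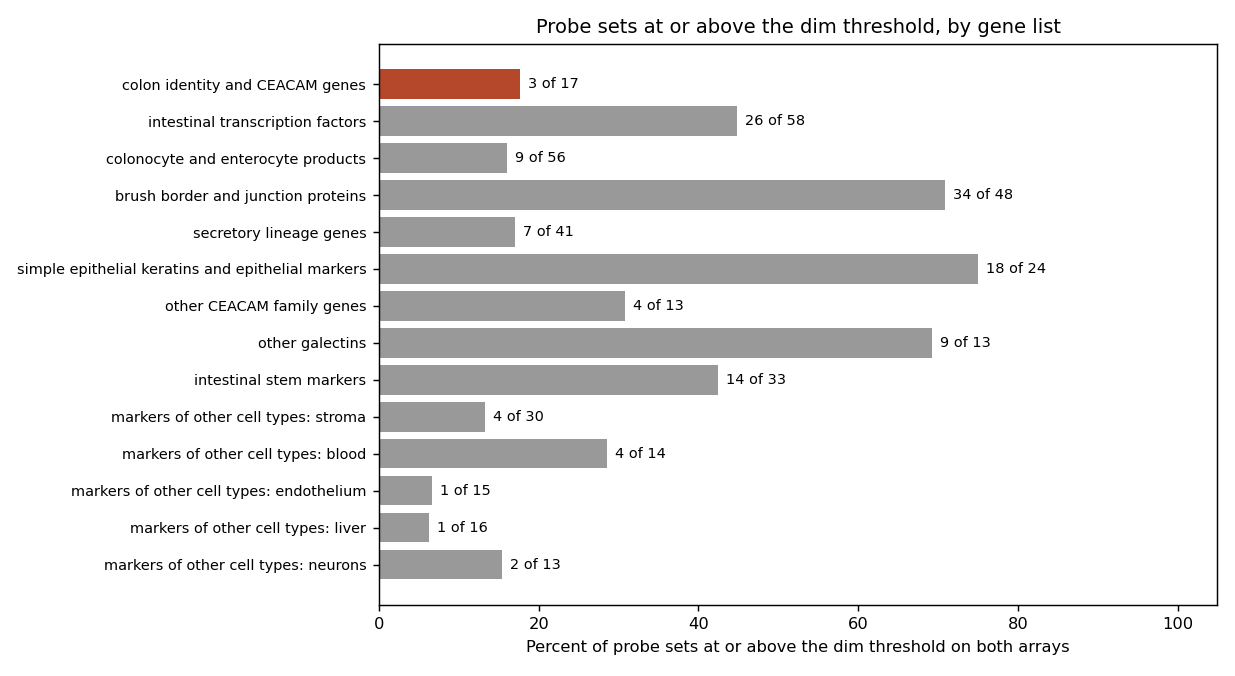
Percent of probe sets at or above the dim threshold on both arrays, by gene list, with the counts at the bar ends. The colon identity and CEACAM genes (3 of 17) lie near colonocyte products (9 of 56) and secretory genes (7 of 41), and epithelial markers (18 of 24) lie far above them.

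Markers of other cell types were read in the same way, and whether HCT116 cells express some of them was not tested. Their 88 probe sets covered 32 genes, and 12 reached the threshold on both arrays, among them COL1A1 at 1292 on the CPEB4-labelled array and 949 on the HCT116-GFP array. Liver markers, which share HNF4A as a regulator, read between 2.90 and 113 on the CPEB4-labelled array and between 2.75 and 139 on the HCT116-GFP array. The member probe sets read between 1.03 and 163 on the CPEB4-labelled array and between 3.72 and 216 on the HCT116-GFP array. Sums over lists of different probe sets bear only on the arrays and not on each other. The 17 member probe sets summed to 918 on the CPEB4-labelled array and 833 on the HCT116-GFP array. In the same order the sums were 508 and 606 for 16 liver probe sets, 299 and 465 for 15 of endothelium, 1083 and 1042 for 14 of blood, 806 and 1003 for 13 of neurons and 2887 and 2707 for 30 of stroma. No marker of another cell type read 0. The part of such signal in the members' values was not tested.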

How the data were processed

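The deposited table holds 1 linear intensity for each of 54675 probe sets and 2 arrays, 1 for each labelled line, as made by the authors. The submitters' processing notes name Partek, with no version or role, and the sources used here do not give the background correction, summarisation or scaling. The trimmed mean, with 2% removed at each end, was 500.1 on both arrays, as happens where arrays are scaled to 1 common level. The groups came from the sample titles, and 0 columns were left unused.

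Probe sets were named through the platform's annotation table, and their symbols were updated from RefSeq by Entrez identifier (GRCh38.p14, names and neighbouring genes only): 41091 had 1 gene, 41037 of them matched, and 1801 had several. Control probe sets were left out. No position of a probe set is given, so the part of a transcript it reads is not known here.

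Differences are log2 of the CPEB4-labelled intensity minus log2 of the HCT116-GFP intensity, without a pseudocount. The genes named are all members with every probe set, and from each further list the 2 highest, 2 lowest and 2 brightest genes, of which some are given. MYO1A, SLC5A1, CREB3L3, FOXA2, CDX4, CEACAM8, EPCAM and HNF4A-AS1 were named after their values were seen. LGALS2 and LGALS9, which did not pass the dim filter, were named outside that choice as well. The members and lists were chosen with earlier results of these data known. Gene promoters of 7 of the 10 members were found in the RefSeq table. With 1 array a group no test was possible. The procedure was tested on simulated data. Changes were placed there only in probe sets brighter than any member, so that test does not bear on the members' intensities. Python 3.11.15, pandas 2.3.3, statsmodels 0.14.6 and Biopython were used. The alternatives were other scalings, filters, a pseudocount of 32, probe sets without cross-hybridisation suffixes and the mean over a gene's probe sets.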

Additional observations from a re-analysis of the deposited data

How the results depend on the processing

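Quantile normalization, loess and subtraction of the median difference left all 17 member differences on the same side of 0 and of 2-fold, with shifts of at most 0.06 log2 units. A pseudocount of 32 units also changed no sign, but left 2 probe sets at 2-fold, CDX1 at 1.40 and VIL1 (1554945_x_at) at −1.74. The median over members that passed a filter ran from 0.21 to 0.35 in the 9 settings with a value. The count of members higher by 2-fold or more (3) became 1 with the pseudocount, 5 without a filter, 0 with the filter on mean log2 intensity and 0 with both arrays required at the threshold. The count lower (1) became 3 without a filter and 0 with either of those filters or without cross-hybridisation suffixes. No member passed the 75th percentile filter (377 units), so it gave no value. For the further lists, genes higher (3) became 18 without a filter. Genes lower (4) became 24 without a filter, 2 with the pseudocount, 1 with the mean filter, 1 with both arrays required and 0 at the 75th percentile. The changes under the filters follow from their construction, since they add or remove dim readings. The pseudocount by construction shrinks differences between dim values, and the suffix alternative leaves out the VIL1 probe set that was lower. No paired analysis was possible because each group has 1 array. Replicates could not be left out for the same reason. Signal over background limits the member readings. Only KRT20, CDX2 (206387_at) and CEACAM5 (217291_at) reached the threshold on both arrays, which does not by itself show expression.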

Other observations

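Intestinal stem cell markers, which sit at the other end of the differentiation axis, passed the dim filter in 6 of 11 cases. None of the 6 differed by 2-fold at its brightest probe set, against 3.55% higher and 3.85% lower of all genes that passed. Their median log2 difference was −0.07. With the mean over kept probe sets instead, 1 stem marker was higher by 2-fold or more. RNF43, a ubiquitin ligase that removes WNT receptors, read 837 on the CPEB4-labelled array and 1173 on the HCT116-GFP array. PROM1 differed by −0.45. CD44 read 12445 on the CPEB4-labelled array and 12658 on the HCT116-GFP array. Its 10 probe sets past the dim filter ran from −0.62 to 1.21. EPHB3, at 0.35, and AXIN2, at 0.08, went the other way. The 2 probe sets of AXIN2 past the filter ran from 0.08 to 2.46. Of the 6 genes, 2 lay above 0 and 4 below.

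Some other galectins were read above the threshold where LGALS4 was not, and some were as dim. Of 7 genes with a probe set in the galectin list, which includes LGALS3BP, 4 passed the dim filter and 3 did not. LGALS2 read 44.2 on the CPEB4-labelled array and 7.18 on the HCT116-GFP array, and LGALS9 read 22.1 and 20.1 in the same order. LGALS1 read 24822 on the CPEB4-labelled array and 28369 on the HCT116-GFP array, and LGALS3 read 13259 and 13790 in the same order. The antisense gene HNF4A-AS1 was read by 1 probe set, at 23.9 on the CPEB4-labelled array and 3.57 on the HCT116-GFP array, both under the threshold, and it says nothing of HNF4A itself.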
